A study of Homo sapiens with 6 samples.

Results

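The guides described here target USP7, MDM4, PPM1D and TP53I13, 4 genes tied to the p53 pathway, in a pooled CRISPR knockout screen of synovial sarcoma cells. The genes were chosen with earlier results of these data known. Their guides were taken by target alone, as every guide that the count table assigns to 1 of them. This gave 10 guides per gene and 40 of 3653 guides in all, in a library of 348 targeted genes with 183 non-targeting guides. All 40 passed a filter of 30 or more counts at day 0, as the mean of its libraries, which kept 3607 guides. By sgRNA number, 15 of the 40 fell in a first set, numbered up to 1495, and 25 in a second set, numbered from 1496. USP7, MDM4 and PPM1D had 5 guides in each set, while all 10 guides of TP53I13 were in the second, as were all guides of 49 of the 348 genes. The sources used here do not say what distinguishes the sets beyond their numbers. Guide sequences and cut sites were not used here, so each guide is named by its number.

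The in vivo group (2 libraries) was made from tumours of cells injected under the skin of athymic nude mice, the in vitro group (2 libraries, day 14) from transduced cells kept in culture, and the day 0 group (2 libraries) from cells set aside before the arms were split. The screen was run in duplicate, from transduction onward. The day 14 and in vivo groups are the 2 arms of the screen, and their libraries are called cultures 1 and 2 and tumours 1 and 2 after the labels' replicate numbers. All 3 groups carry the same modification, since the cells are HS-SY-II, a human synovial sarcoma line with an SS18::SSX fusion, made to express Cas9 and transduced with the guide library. Nude mice lack mature T cells, so the tumours grew in hosts without that arm of immunity, and the labels number the tumours 1 and 2 whereas the study's correlation plot names both as mice of replicate 1. A guide count measures how many cells carry a guide and not RNA, so the cell line cannot be checked by expression markers, and a fall in a guide cannot separate cell death from slower division.

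p53 is a transcription factor that halts the cell cycle or triggers cell death when it is active, and proliferating cells hold it in check. MDM4, a relative of the ubiquitin ligase MDM2, binds the activation domain of p53 and works in a complex with MDM2. USP7 is a deubiquitinase that removes ubiquitin from MDM2, MDM4 and p53 itself, and it has many further substrates. PPM1D, also called WIP1, is a phosphatase that p53 induces and that removes activating phosphates from p53 and from kinases of the DNA damage response. TP53I13 is named as a p53-inducible gene and is the least studied of the 4. Whether p53 was active in these cells was not measured.

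In hg38 with GENCODE annotation, USP7 lies on the minus strand of chromosome 16 at 8892097 to 8975328, with 31 coding exons for 1102 residues in its canonical transcript. MDM4 lies on the plus strand of chromosome 1 at 204516379 to 204558120, with 10 coding exons for 490 residues. Both other genes are on the plus strand of chromosome 17. PPM1D spans 60600193 to 60666280 with 6 coding exons for 605 residues. TP53I13 spans only 7106 bases, 29566052 to 29573157, with 7 coding exons for 393 residues, and overlaps the protein-coding gene ABHD15 on the opposite strand.

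Total counts ran between 3394352 and 21854232 per library, an average of 929 to 5983 for a guide, with the first day 0 library by far the deepest. Levels are given below as CPM, counts scaled by library size and TMM, and 1 count was worth 0.0407 to 0.277 CPM. This scaling sets the middle of all guides near 0, and non-targeting guides then had a median log2 fold change of 0.50 at day 14 and 0.57 in vivo relative to day 0. For second set guides of all genes the medians were -0.57 at day 14 and -0.61 in vivo, and for first set guides 0.41 and 0.52. Scaling to the non-targeting guides moved log2 fold changes by -0.51 in vitro and -0.85 in vivo, and every fold change below is relative to the TMM scale.

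Every second set guide of the 4 genes stood below day 0 in both cultures. For 25 of 25, both day 14 libraries were below both day 0 libraries, against 1010 of 1932 second set guides overall (52.3%), 31.5% of all guides and 2.73% of non-targeting guides. Their median log2 fold change was -2.45. In vivo the same held for 20 of 25, against 46.6% of second set guides and 30.6% of all guides, with a median of -2.80. For the 15 first set guides of USP7, MDM4 and PPM1D the medians were 0.23 at day 14 and -0.04 in vivo. Of these guides, 2 of 15 and 4 of 15 lay below day 0 in both libraries, against 8.04% and 13.3% of all first set guides. Taken singly, 0 of the 40 guides passed edgeR's quasi-likelihood test in vitro with an adjusted p under 0.05 (a call, below), where 0% of all guides were called lower and 0% higher, although 15 of the 40 were lower at an unadjusted p under 0.05 (background 259 of 3607 guides, 7.18%) and DESeq2 called 12 lower (background 125 of 3607, 3.47%). In vivo, 2 of the 40 were called lower (background 1.14%) and 0 higher (background 0.554%). The counts of each gene's guides were then summed within a set and tested over libraries, 2 in each group. The share of all sums that did not overlap day 0 is not given here. A lack of overlap of a sum, below, therefore only describes its levels.

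USP7 guides of the second set were nearly absent from the cultures and were more abundant in the tumours. Their summed level was 40.2 and 66.7 CPM at day 14 and 242 and 883 CPM in vivo, against 1354 and 1129 CPM at day 0. Neither the cultures nor the tumours overlapped day 0, and both tumours were above both cultures. The log2 fold change was -4.53 ± 0.66 (SE, n = 2 libraries per group) at day 14, rank 3 from the lowest of the 348 second set sums and called at an adjusted p of 0.0224. Of all 647 sums, 2.63% were called lower in vitro and 0% higher, and of the second set sums 4.89% were called lower. In vivo it was -1.14 ± 0.57 with an adjusted p of 0.141, which is no call. The difference between tumours and cultures was itself tested and was 3.39 ± 0.63, with an adjusted p of 0.0246, where 2.63% of sums were called higher in vivo than at day 14 and 0% lower. Both the day 14 call and the difference were lost without any 1 of the day 0 or day 14 libraries (adjusted p = 0.225 to 0.606 for -4.90 to -4.18, and 0.128 to 0.392 for 3.14 to 3.86), and the difference was 3.06 (adjusted p = 0.0800) when non-targeting guides set the scale. Without tumour 2 the log2 fold change in vivo was -2.36. With the replicate number as a block the sum was called in vivo (-1.41, adjusted p = 0.0452), and with both tumours in block 1 the difference was not (3.53, adjusted p = 0.118).

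Guide by guide, most of the USP7 level in tumours came from sgRNA_1893. sgRNA_1893 had 184 and 763 CPM in vivo and 31.9 and 39.2 CPM at day 14, against 262 and 436 CPM at day 0. sgRNA_1895 had 36.6 and 105 CPM in vivo and 1.57 and 1.11 CPM at day 14, against 245 and 179 CPM at day 0. For sgRNA_1893 and sgRNA_1895 each tumour exceeded each culture, by a log2 difference of 3.74 and 5.72, but neither passed the test as a single guide (adjusted p = 0.161 for each), and 0.0277% of all guides did so upward and 0% downward. sgRNA_1891 had 9.15 and 1.52 CPM in vivo and 2.87 and 0.887 CPM at day 14, against 222 and 205 CPM at day 0. sgRNA_1892 had 2.22 and 3.20 CPM in vivo and 2.35 and 21.1 CPM at day 14, against 311 and 112 CPM at day 0. sgRNA_1894 had 9.43 and 10.3 CPM in vivo and 1.57 and 4.43 CPM at day 14, against 314 and 195 CPM at day 0, so each tumour exceeded each culture for it too. The share of all guides for which each tumour exceeded each culture is not given here. The day 14 levels rest on 6 and 20 counts for sgRNA_1894 and on 6 and 5 for sgRNA_1895. sgRNA_1891, sgRNA_1892 and sgRNA_1894 stayed under 5% of their day 0 mean in both tumours.

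The sum follows its most abundant guide, and the call of the difference turned on sgRNA_1893. Without it the log2 fold change of the USP7 sum in vivo was -3.33 (adjusted p = 0.0171), and the difference between tumours and cultures was 2.30 with an adjusted p of 0.128, while without sgRNA_1895 it was 3.24 and still called (adjusted p = 0.0402). Where each guide counted equally, as the mean of log2 values over the 5 guides tested with limma, the USP7 log2 fold change was -3.44 ± 0.32 in vivo (adjusted p = 0.000299, background 23.6% of sums called lower) and -5.31 ± 0.32 at day 14 (adjusted p = 0.000129, background 11.1%). On that scale tumours were still above cultures by 1.87 ± 0.32 (adjusted p = 0.0409, background 0.309%). The 5 first set guides of USP7 had a summed level of 942 and 1766 CPM in vivo and 1399 and 1494 CPM at day 14. At day 0 it was 1342 and 1291 CPM. The log2 fold changes of 0.04 ± 0.32 in vivo and 0.14 ± 0.32 at day 14 were not called and stood below the non-targeting medians, which are over single guides and not sums. Among sums, these fold changes had ranks 18 and 45 from the lowest of 299 first set sums, whose medians were 0.77 in vivo and 0.41 at day 14. In tumour 2 the guides ranged between 1.83 CPM for sgRNA_1428 and 942 CPM for sgRNA_1427.

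MDM4 guides of the second set fell in both arms. Their summed level was 34.5 and 33.5 CPM at day 14 and 10.8 and 64.8 CPM in vivo, against 1214 and 685 CPM at day 0, with no overlap between day 0 and either arm. The log2 fold change was -4.80 ± 0.97 at day 14 (adjusted p = 0.0418) and -4.64 ± 0.96 in vivo (adjusted p = 0.0124), ranks 2 and 3 from the lowest of the 348 second set sums. In vivo, 20.1% of the second set sums were called lower. Of all sums, 10.8% were called lower there and 23.3% higher. When non-targeting guides set the scale, these numbers changed to 208 lower and 6 higher of 647, against 70 and 151 on the TMM scale. Cultures and tumours overlapped, and their difference of 0.17 ± 0.84 was not called, although without tumour 2 it was -1.65. Without any 1 of the day 0 or day 14 libraries both calls were lost, at adjusted p = 0.225 to 0.617 for -5.16 to -4.29 at day 14 and 0.0528 to 0.158 for -4.99 to -4.07 in vivo, and the day 14 call was also lost without sgRNA_1763 (adjusted p = 0.0611) or sgRNA_1765 (0.0706). With both tumours in block 1 the sum was not called at day 14 (-4.74, adjusted p = 0.0613).

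sgRNA_1765 was the most depleted MDM4 guide. It had 1.66 and 1.22 CPM in vivo and 1.31 and 2.22 CPM at day 14, from 5 to 10 counts per library, against 279 and 199 CPM at day 0. Its log2 fold change of -7.38 in vivo was called singly (adjusted p = 0.0426) and had rank 10 from the lowest of 3607 guides. sgRNA_1761 was the other single call in vivo, at -6.23 (adjusted p = 0.0447), and it was also lower in each tumour, at 3.05 and 1.52 CPM, than in each culture, at 21.4 and 15.3 CPM, against 215 and 126 CPM at day 0. Neither guide was called with the replicate number as a block (adjusted p = 0.0921 for each). sgRNA_1763 had 2.77 and 3.96 CPM in vivo and 2.61 and 12.9 CPM at day 14, against 367 and 74.1 CPM at day 0. sgRNA_1762 was less depleted in tumour 2 than in tumour 1 and the cultures, with 2.77 and 57.8 CPM in vivo and 5.22 and 3.10 CPM at day 14, against 343 and 257 CPM at day 0. It supplied most of the MDM4 level in tumour 2. sgRNA_1764 was rare from the start, with 2 and 2 counts in vivo and 15 and 0 counts at day 14, against 241 and 146 counts at day 0, so its fold changes carry little precision. The MDM4 first set guides had a summed level of 2693 and 3153 CPM in vivo and 2501 and 2385 CPM at day 14, against 2219 and 1962 CPM at day 0. Both arms lay above day 0, but the log2 fold changes of 0.48 ± 0.25 in vivo and 0.22 ± 0.25 at day 14 were not called. In vivo 40.8% of first set sums were called higher. Both MDM4 values stood below the medians over all first set sums, 0.77 in vivo and 0.41 at day 14, and below the medians of single non-targeting guides, which are not sums. In vivo the sum was called higher by DESeq2 (0.58, adjusted p = 0.0402), and it was 0.59 without tumour 1.

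PPM1D guides of the second set were lower at day 14 in both cultures without passing the test on their sum. The sum was 221 and 280 CPM at day 14 and 820 and 186 CPM in vivo, against 1250 and 1158 CPM at day 0, and neither arm overlapped day 0. The log2 fold change was -2.26 ± 0.61 at day 14 (adjusted p = 0.0765) and -1.26 ± 0.59 in vivo (adjusted p = 0.122). Averaged over guides on the log2 scale, the PPM1D log2 fold change was -3.21 ± 0.30 at day 14 (adjusted p = 0.000529) and -3.14 ± 0.30 in vivo (adjusted p = 0.000355) with limma. The sum was also called at day 14 by DESeq2 (-2.23, adjusted p = 0.00414). When non-targeting guides set the scale it was called in both arms (-2.78 and -2.13, adjusted p = 0.0150 and 0.0244). On that scale 171 of 647 sums were called lower at day 14 and 208 in vivo, against 17 and 70 on the TMM scale. Without either tumour library the value at day 14 was -2.26, and without tumour 1 the value in vivo was -2.70. With the replicate number as a block the sum was called in both arms too (-2.22 and -1.45, adjusted p = 0.0194 and 0.0461).

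The sum depended most on sgRNA_2235. It had 729 and 108 CPM in vivo and 124 and 120 CPM at day 14, against 283 and 255 CPM at day 0, so that tumour 1 held more of it than day 0 did. Without this guide the log2 fold change of the PPM1D sum was -2.86 at day 14 (adjusted p = 0.0367) and -3.46 in vivo (adjusted p = 0.0105). sgRNA_2231 was the most depleted, with 15.5 and 1.83 CPM in vivo and 2.87 and 2.44 CPM at day 14, against 381 and 309 CPM at day 0. sgRNA_2233 had 28.3 and 43.2 CPM in vivo and 35.3 and 74.9 CPM at day 14, against 268 and 307 CPM at day 0. sgRNA_2232 had 46.8 and 10.5 CPM in vivo and 37.9 and 81.8 CPM at day 14, against 165 and 122 CPM at day 0. For these 3 guides every culture and tumour was below both day 0 libraries. sgRNA_2234 was uneven within each arm, with 1.11 and 22.7 CPM in vivo and 20.6 and 1.11 CPM at day 14, against 152 and 165 CPM at day 0.

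Of the 4 genes, PPM1D had the widest gap between tumours. The median gap between both tumours was 2.30 on the log2 scale over its 10 guides, and 7 of 10 differed by more than 2, while non-targeting guides had a median gap of 0.90 with 24 of 183 over 2 and a widest gap of 4.41. At day 0 the median gap for PPM1D was 0.24. The first set guide sgRNA_891 had the widest gap of the PPM1D guides, 4.40, with 179 and 3799 CPM in vivo and 461 and 631 CPM at day 14, against 216 and 292 CPM at day 0. Through it the PPM1D first set sum read 626 and 4371 CPM in vivo and 1188 and 1891 CPM at day 14, against 1112 and 1281 CPM at day 0, and its log2 fold changes of 1.06 ± 0.69 in vivo and 0.36 ± 0.68 at day 14 were not called. Without tumour 2 the value in vivo was -0.93, and without tumour 1 it was 1.87. Among the first set guides of PPM1D, sgRNA_892 was lower than day 0 in all 4 libraries, at 138 and 17.2 CPM in vivo and 91.9 and 50.6 CPM at day 14, against 241 and 242 CPM at day 0. sgRNA_893 was lower too, by a narrow margin in culture 2, at 108 and 58.7 CPM in vivo and 115 and 243 CPM at day 14, against 245 and 310 CPM at day 0.

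The summed TP53I13 guides fell in both arms. Their sum was 927 and 850 CPM at day 14 and 1264 and 1163 CPM in vivo, against 2711 and 2194 CPM at day 0, with no overlap. The log2 fold change was -1.46 ± 0.26 at day 14 (adjusted p = 0.0296) and -1.02 ± 0.26 in vivo (adjusted p = 0.0194), which gave ranks 42 and 78 from the lowest of 348 second set sums. The median over second set sums of all genes was -0.50 at day 14 and -0.26 in vivo, and 4.89% and 20.1% of these sums were called lower. The TP53I13 values and calls are to be read against these. The difference between tumours and cultures, 0.45 ± 0.26, was not called. Without any 1 of the day 0 or day 14 libraries the call was lost at day 14 (-1.61 to -1.26, adjusted p = 0.225 to 0.606) and in vivo (-1.16 to -0.76, adjusted p = 0.0731 to 0.189), and both were lost with both tumours in block 1 (-1.46 and -1.12, adjusted p = 0.0613 and 0.0659).

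All 10 TP53I13 guides were lower at day 14 than at day 0 in both libraries, and 7 of 10 were so in vivo. Over all second set guides the shares were 52.3% at day 14 and 46.6% in vivo. sgRNA_2575 was the most even, with 165 and 155 CPM in vivo and 134 and 139 CPM at day 14, against 556 and 434 CPM at day 0. sgRNA_3396 had 28.3 and 23.3 CPM in vivo and 70.8 and 54.3 CPM at day 14, against 215 and 192 CPM at day 0. This guide had the lowest log2 fold change of the gene, -2.98 in vivo, and no TP53I13 guide dropped below 10% of its day 0 mean in both libraries of an arm. 4 guides shared a split between the cultures. sgRNA_2571 had 70.3 and 17.5 CPM at day 14, against 221 and 104 CPM at day 0. sgRNA_2572 had 64.0 and 15.1 CPM at day 14, against 210 and 116 CPM at day 0, and sgRNA_3392 had 75.7 and 12.9 CPM, against 210 and 139 CPM at day 0. sgRNA_3394 had 46.2 and 14.2 CPM at day 14, against 199 and 131 CPM at day 0. In each of them culture 2 was the lower, and day 0 replicate 2 was also the lower of its pair.

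In vivo these 4 guides parted. sgRNA_2571 had 135 and 76.4 CPM, sgRNA_2572 had 26.3 and 20.4 CPM and sgRNA_3392 had 31.9 and 32.4 CPM, while sgRNA_3394 reached 686 CPM in tumour 1 and 76.7 CPM in tumour 2. The last was the only TP53I13 guide with a positive log2 fold change in vivo, 1.20, and it was not called. sgRNA_2573 went the other way between tumours, with 14.4 and 454 CPM in vivo and 207 and 246 CPM at day 14, against 289 and 309 CPM at day 0. The remaining guides, sgRNA_2574, sgRNA_3393 and sgRNA_3395, had log2 fold changes of -1.16, -1.49 and -2.61 in vivo and of -0.78, -2.34 and -1.06 at day 14. TP53I13 has no first set guides, so its guides cannot be set against another set.

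For the other 3 genes the gap between sets was tested within the gene, as the log2 ratio of the second set sum to the first with limma over 299 genes. For USP7 the ratio changed by -4.68 ± 0.47 at day 14 (adjusted p = 0.00325) and by -1.39 ± 0.47 in vivo (adjusted p = 0.0504), the latter -0.91 without tumour 1 and -1.87 without tumour 2. For MDM4 it changed by -4.93 ± 0.70 at day 14 (adjusted p = 0.00734) and by -5.51 ± 0.70 in vivo (adjusted p = 0.00213). For PPM1D the changes of -2.60 ± 1.31 and -2.09 ± 1.31 were not called (adjusted p = 0.171 and 0.234), and without tumour 2 the second was 0.38 while without tumour 1 it was -4.56. In vivo the ranks from the lowest of 299 genes were 124 for USP7, 3 for MDM4 and 58 for PPM1D, and 37.1% of genes were called lower. The median in vivo over all genes was -0.26 for second set sums and 0.77 for first set sums, so a lower second set was common. At day 14 the sets of USP7 and MDM4 differed by more than the spread between libraries. They had ranks 3 and 2 there, where 15.4% of genes were called lower. Without the first day 0 library both day 14 calls were lost (adjusted p = 0.0710 and 0.104). The USP7 ratio was also higher in tumours than in cultures by 3.30 ± 0.47 (adjusted p = 0.0193), a call made for 0.669% of genes.

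Ranked over all 10 guides of each gene, by the robust rank aggregation that the study used, only USP7 and MDM4 passed, and only in vitro. This method asks whether a gene's guides crowd at the low end of the ranking, and it was run here with an upper bound on its p. In vitro USP7 had rank 1 of 348 genes (FDR 0.00139) and MDM4 rank 6 (FDR 0.0675), both past an FDR of 0.2 that 2.59% of genes passed. PPM1D and TP53I13 had ranks 28 and 34 with an FDR of 1, although TP53I13 passed when alpha, the share of the ranking that counts, was set to 0.25 (FDR 0.0129). The share of genes that passed at that alpha is not given here. All TP53I13 guides are of the second set, whose median at day 14 was -0.57 against 0.41 for first set guides. The MDM4 call was lost without any 1 of the day 0 or day 14 libraries and with the replicate number as a block (FDR 1). In vivo, where 1.15% of genes passed, the FDR was 0.396 for MDM4, 0.441 for TP53I13, 0.484 for USP7 and 0.982 for PPM1D. By the plain median over 10 guides, the order in vitro was TP53I13 (-1.87), USP7 (-1.69), MDM4 (-1.63) and PPM1D (-1.20), with TP53I13 the only one of them without first set guides.

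Of 13 other genes looked for as p53 regulators, effectors or modifiers, 7 had guides in the table (67 kept guides), and the other 6, p53 itself and MDM2 among them, were not analysed here. At day 14 none of their 14 sums passed the test. In vivo, the second set sum of PIAS1, a SUMO ligase with p53 among its substrates, fell, with a log2 fold change of -4.40 ± 1.09 in vivo (adjusted p = 0.0171), and at day 14 it was -3.44 ± 1.04 (adjusted p = 0.0914). The call was lost without any 1 of the day 0 or day 14 libraries (adjusted p = 0.0597 to 0.159) and with both tumours in block 1 (0.0608). The second set sum of CUL9, a cytoplasmic cullin that binds p53, was higher in vivo by 1.37 ± 0.39 (adjusted p = 0.0273, background 8.33% of second set sums), although its median second set guide was at -1.47 and the sum was only 0.60 without tumour 1. Called higher in vivo as well were the first set sums of AKT1, a survival kinase, CCNG1, a p53-induced cyclin, and RPS27A, a ubiquitin and ribosomal protein gene, at 1.19, 1.77 and 1.60, among 122 of 299 first set sums called higher there (40.8%, median of all 0.77). When non-targeting guides set the scale, none of these 4 calls upward held (adjusted p = 0.125 to 0.501), and they were lost as well without any 1 of the day 0 or day 14 libraries (adjusted p = 0.0528 to 0.206), with both tumours in block 1 (0.0534 to 0.102) and, for RPS27A, without tumour 2 (0.112). HIPK1 and KAT6A gave no call in either arm. By median over all guides, PIAS1 was the lowest of the 7 in both arms and CCNG1 the highest in both.

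Among all 348 genes, the ones nearest to each member by their second set sums over the 6 libraries were found by Euclidean distance between log2 levels centred on day 0. MDM4 lay nearest to RPL13, a ribosomal protein gene (distance 2.48), CDC45, a replication factor (2.70), and PIAS1 (3.85). USP7 lay nearest to KAT2A, a histone acetyltransferase gene (2.18), EPS8L1 (2.73) and PCGF3, a Polycomb group gene (2.84). PPM1D lay nearest to LGALS7B (1.51), GEMIN2 (1.59) and TNS2 (1.68), and TP53I13 to GTPBP2 (0.30), TGFBRAP1 (0.50) and MTRNR2L3 (0.55). The median distance to all other genes was 6.18 for USP7, 9.11 for MDM4, 3.68 for PPM1D and 2.09 for TP53I13. Among the 4 genes themselves, PPM1D and TP53I13 were the closest pair at 2.06, and MDM4 and TP53I13 the farthest at 7.55. The distance of 2.06 was about the TP53I13 median, so TP53I13 lay hardly nearer to PPM1D than to a typical gene. USP7 and MDM4 were 5.18 apart, and their largest gaps were in the tumours, where its centred log2 levels were -2.35 and -0.48 and those of MDM4 were -6.27 and -3.79.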

How the data were processed

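Counts of 6 libraries of HS-SY-II-Cas9 cells (2 each of in vivo tumours, day 14 cultures and day 0 cells) were used. The deposited values are counts per guide, in whole reads that the authors mapped to their custom library with MAGeCK, and the submitters' processing notes also name hg38, both without a version. A second deposited table holds normalized signal values, each count column times 1 factor per library, by a rule the sources used here do not give. It served as an alternative, and 0 columns lacked a sample.

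Guides averaging 30 or more counts at day 0 were scaled by TMM and fitted in 1 model of 3 groups with edgeR 4.0.16 in R 4.3.3 (glmQLFit, glmQLFTest, two-sided). Benjamini-Hochberg adjustment ran over all 3607 guides, or over 647 sums per gene and guide set, at 0.05. The SE is the fold change over the square root of F. Ratios of second to first set sums (1 CPM added) and mean log2 (CPM + 1) per gene and set were tested with limma 3.58.1, the mean log2 chosen after seeing the data. In robust rank aggregation, alpha was 0.0435 in vitro and 0.166 in vivo, p was bounded by score times number of guides without resampling, and the FDR threshold was 0.2. DESeq2 1.42.0, other scalings, filters, replicate blocks and leaving out each library or, chosen after seeing the data, each guide were alternatives. The fits were tested on simulated counts that varied less between libraries than the real ones (common dispersion of guides 0.303). That test does not show how the fits behave at the real spread.

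The rule for named genes took all guides of the 4 genes, the p53 list and the 3 nearest genes of each. The members and lists were chosen with earlier results of these data known. The study's methods describe duplicate transductions, each carried into culture and into its own mice, so a replicate number should tie day 0 to day 14. Whether both tumours share a transduction is unsettled, so blocks by label and with both tumours in block 1 were fitted. Deviations of same-numbered libraries correlated at 0.0694 for day 0 and day 14 and at 0.0020 and 0.0025 with the tumours. In the main fits the spread was estimated over all 3 groups and drawn toward that of the other guides, sums or ratios. With 2 libraries in a group, the p-values still rest on few libraries.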

Additional observations from a re-analysis of the deposited data

Results flagged for a closer look

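The second set sum of USP7 moved differently in the arms, since the tested difference between tumours and cultures was 3.39 on the log2 scale, with 242 and 883 CPM in vivo and 40.2 and 66.7 CPM at day 14, against 1354 and 1129 CPM at day 0. It was called at an adjusted p of 0.0246 with edgeR and was 2.30 without sgRNA_1893, with an adjusted p of 0.128, and 3.53 with both tumours in replicate block 1, with an adjusted p of 0.118.

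The first set guide sgRNA_688 of MDM4 stood above its day 0 mean in both cultures and below it in both tumours, with 288 and 448 CPM in vivo and 527 and 641 CPM at day 14, against 548 and 435 CPM at day 0. The difference of -0.67 between tumours and cultures was not called among all guides, and both arms overlapped day 0.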

How the results depend on the processing

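A fit without 1 library leaves a group with 1, which is then assumed to vary like the others. Over all fits that left out 1 library or 1 guide, the second set sums kept their direction against day 0. At day 14 they ranged from -5.63 to -4.18 for USP7, -5.64 to -4.29 for MDM4, -2.86 to -1.79 for PPM1D and -1.70 to -1.26 for TP53I13, and in vivo from -3.33 to -0.49, -6.45 to -3.87, -3.46 to -0.55 and -1.46 to -0.76 in the same order. The differences between tumours and cultures ranged from -1.99 to 1.20 for MDM4, -0.60 to 1.71 for PPM1D and -0.0454 to 0.611 for TP53I13, and without tumour 2 those of MDM4 and PPM1D were -1.65 and 1.71. Guides of the 4 genes called lower numbered 0 to 16 in vitro and 0 to 17 in vivo, where all guides called lower numbered 0 to 267 and 0 to 624. First set sums in vivo ranged from -0.48 to 0.42 for USP7 and -0.93 to 1.87 for PPM1D.

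The ratio of second to first set at day 14 ranged from -4.99 to -4.37 for USP7, -5.25 to -4.61 for MDM4 and -2.76 to -2.43 for PPM1D, and in vivo from -1.87 to -0.91 for USP7 and -4.56 to 0.38 for PPM1D. The rank aggregation FDR in vitro ranged from 0.0438 to 1 for MDM4, 0.142 to 1 for PPM1D and 0.00722 to 1 for TP53I13, and in vivo from 0.0671 to 1 for MDM4 and 0.160 to 1 for TP53I13. Single guides that changed sign were, at day 14, sgRNA_1427 (-0.29 to 0.18) and sgRNA_1428 (-0.71 to 1.19), and in vivo sgRNA_1427 (-0.42 to 2.02), sgRNA_1893 (-0.92 to 1.13), sgRNA_891 (-0.51 to 3.90), sgRNA_2235 (-1.32 to 1.44), sgRNA_2571 (-1.09 to 0.12), sgRNA_2573 (-4.37 to 0.60) and sgRNA_3394 (-1.11 to 2.05).

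Scaling to the non-targeting guides, which moves all fold changes down by its construction, turned the first set sums to -0.38 (USP7), -0.29 (MDM4) and -0.15 (PPM1D) at day 14 and to -0.81 (USP7) and -0.37 (MDM4) in vivo. It gave 12 guides called lower in vivo (of 323 in all), no call of the USP7 difference between arms (3.06), a call of PPM1D at -2.78 in vitro and of USP7 and PPM1D at -1.99 and -2.13 in vivo, a TP53I13 FDR of 0.0224 in vitro, a MDM4 difference between arms of -0.16, -0.27 at day 14 for sgRNA_688, and -0.39 and -0.23 in vivo for sgRNA_1893 and sgRNA_2235. Of 647 sums, 171 were called lower in vitro and 208 in vivo on that scale. DESeq2 called 12 guides in vitro and 13 in vivo (of 125 and 370 in all), PPM1D at -2.23 in vitro and the MDM4 first set sum at 0.58 in vivo. limma on the authors' normalized values called 6 and 10 guides (of 48 and 260 in all), with -0.25 at day 14 for sgRNA_688 and, in vivo, -0.36 for sgRNA_1893, -0.45 for sgRNA_2235 and -0.00595 for sgRNA_3394. Groups compared alone gave 16 guides in vitro (of 293 in all) and 0 in vivo, no call of the USP7 difference between arms (3.41, adjusted p = 0.158), a call of PPM1D at -2.26 in vitro, and no call of MDM4 (-4.53) and TP53I13 (-0.92) in vivo. The cause was not tested.

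The means of guide log2 values gave calls of PPM1D at -3.21 in vitro and of USP7 and PPM1D at -3.44 and -3.14 in vivo, first set values in vivo of -0.58 (USP7) and -0.62 (PPM1D), and differences between arms of -0.51 (MDM4) and -0.0016 (TP53I13). For the ratio of sets they gave calls of PPM1D at -3.23 in vitro and of USP7 and PPM1D at -2.85 and -2.52 in vivo, and 10 CPM added in place of 1 gave a call of USP7 in vivo at -1.37. In rank aggregation TP53I13 passed in vitro with alpha at 0.25 (FDR 0.0129) or no alpha (0.00773), and with second set guides only USP7 and MDM4 passed in vivo (0.0672 and 0.0659). The shares of all genes that passed in these settings are not given here.

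With the replicate number of the labels as a replicate block, 0 guides were called in vivo, PPM1D was called in vitro (-2.22), USP7 (-1.41) and PPM1D (-1.45) in vivo, the USP7 first set sum was -0.0107 in vivo, the MDM4 difference between arms -0.00555, and MDM4 lost its rank aggregation call in vitro (FDR 1). With both tumours in block 1, as the study's plot names them, 0 guides were called in vivo, MDM4 (-4.74) and TP53I13 (-1.46) lost their call in vitro and TP53I13 (-1.12) in vivo, the USP7 difference between arms was no longer called (3.53, adjusted p = 0.118), the MDM4 difference between arms was -0.0701, and sgRNA_1428 was 0.13 at day 14. Neither block changed another call among the sums of the 4 genes, nor did the block by label among their ratios and other ranks. Other scaling and filters gave no other change of a call or sign among these sums, ratios and ranks.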
